A study of Arabidopsis thaliana with 36 samples.

Results

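The genes described here are 41 genes of Arabidopsis thaliana that assemble iron-sulfur clusters or encode ferredoxins, picked by their AGI identifiers out of 28775 genes in the deposited count table, where all 41 were found. They comprise 12 genes of the plastid SUF pathway, 13 of the mitochondrial ISC pathway, 7 of the cytosolic CIA pathway, the 4 monothiol glutaredoxins GRXS14 to GRXS17 and 5 plastid ferredoxins. Their transcripts were measured by RNA sequencing in 4 groups: opt3-2 roots, Columbia-0 roots, opt3-2 leaves and Columbia-0 leaves. Columbia-0 is the wild type, while opt3-2 carries an insertion in OPT3 and is viable. OPT3 is an oligopeptide transporter of the phloem that is known for its part in iron movement between shoot and root. Each group had 3 biological replicates, each RNA sample came from a pool of 3 to 4 plants, and the 3 sequencing runs of a replicate were summed, so that n = 3 throughout. Both genotypes grew for 11 days on plates, followed by 22 days in hydroponics, with a day of 16 h light and 8 h dark. The labels of all 4 groups give a replete medium and, in another field, 20 µM CdCl2 for 72 h before harvest; which of them held for these samples was not settled.

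Iron-sulfur clusters are cofactors of electron transport and of many enzymes, and plants build them in plastids and in mitochondria, with a further pathway that matures cytosolic and nuclear proteins from a sulfur compound exported by mitochondria. In each pathway a cysteine desulfurase or its product supplies sulfur, a scaffold protein holds the nascent cluster, and carrier proteins hand it to clients. Ferredoxins are small iron-sulfur proteins, and those among the members belong to plastids. In leaves, plastid ferredoxins take electrons from photosystem I and pass them to NADP reduction, nitrite and sulfite reduction and thioredoxin. The further ferredoxin genes MFDX1, MFDX2 and FD4 are not members and were placed among the other assembly factors.

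Summed depth was 23981444 to 37685493 counted reads per replicate. OPT3 itself was at 19.4 ± 1.40 counts per 1000000 reads (CPM) in opt3-2 leaves and 102 ± 23.8 CPM in Columbia-0 leaves (SD, n = 3), a log2 fold change of -2.40 on edgeR's quasi-likelihood test. In roots, where it was scarce, OPT3 was at 5.64 ± 0.774 CPM in opt3-2 and 7.51 ± 0.798 CPM in Columbia-0 (log2 fold change -0.41, adjusted p = 0.125, edgeR). Organ markers followed the labels: 7 leaf genes summed to 58876 to 61797 CPM in opt3-2 leaves and 68477 to 74750 CPM in Columbia-0 leaves, and to 209 to 417 CPM in opt3-2 roots and 186 to 305 CPM in Columbia-0 roots. The sums of 6 root genes were 161 to 260 CPM in opt3-2 roots and 238 to 296 CPM in Columbia-0 roots, and 0.439 to 1.82 CPM in opt3-2 leaves and 0.757 to 1.26 CPM in Columbia-0 leaves. None of these 7 leaf genes or 6 root genes passed the test between genotypes in either organ. All 7 leaf genes had negative log2 fold changes in leaves (median -0.24, sums without overlap) and positive ones in roots (median 0.20), and all 6 root genes had negative ones in roots (median -0.24). Of 4 phloem genes, 3 were lower in opt3-2 leaves, where the 4 summed to 267 to 307 CPM against 416 to 454 CPM in Columbia-0 leaves; in roots the sums were 206 to 224 CPM in opt3-2 and 178 to 200 CPM in Columbia-0, with only SUC2 past the test, higher in opt3-2. Of 4 pollen genes, 3 were lower in opt3-2 roots, at summed levels of 0.0542 to 1.93 CPM in opt3-2 and 2.89 to 15.7 CPM in Columbia-0. The part of these shifts in the results below was not tested, and in bulk tissue fewer cells of a type and less RNA per cell cannot be told apart.

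Between genotypes the largest log2 change of a tested member was 0.65, that of SUFE2 in roots, which did not pass. In roots 6 of the 39 members with enough reads to test passed an adjusted p of 0.05 (edgeR, Benjamini-Hochberg over 21692 genes), 3 higher and 3 lower in opt3-2, when 15.6% of all tested genes passed, 8.28% higher and 7.28% lower. In leaves 7 members passed, 3 higher and 4 lower, when 28.1% of all tested genes passed, 15.4% higher and 12.6% lower. In this fit of both organs the share of members was thus close to the genome-wide share in roots and below it in leaves. Fits of each organ alone gave other counts, which are described below. The median log2 fold change of the members was 0.05 in roots and 0.06 in leaves, beside medians of 0.00 in both organs over all genes. The largest called change was 0.53 on the log2 scale in roots and 0.52 in leaves, and 34 members in each organ stayed within 0.3 of zero. How many of all tested genes stayed within that range was not computed. Standard errors had a median of 0.08 in both organs. The calls were spread over the compartments: in roots 2 of 19 tested plastid members, 3 of 12 mitochondrial members and 1 of 8 cytosolic members, and in leaves 4, 3 and 0. In all, 11 members were called in roots, in leaves or for the difference between organs, and 28 were called in none of these. The share of all tested genes called in any of these comparisons was not computed, so these counts have no baseline. The genotype effect differed between leaves and roots for 4 members, SUFB, MTHSC70-1, FD2 and FD3, when 16.1% of all tested genes passed the same test of the difference. For SUFB and MTHSC70-1 the leaf effect was above the root effect, as for 8.45% of all genes, and for FD2 and FD3 it was below, as for 7.69%. Replicates of the genotypes did not overlap in roots for 10 members that were higher and 5 that were lower in opt3-2, when 15.0% of all tested genes were higher and 16.5% lower in that way. In leaves 11 were higher and 10 lower, against 26.0% and 23.9% of all tested genes.

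**Figure D1:**
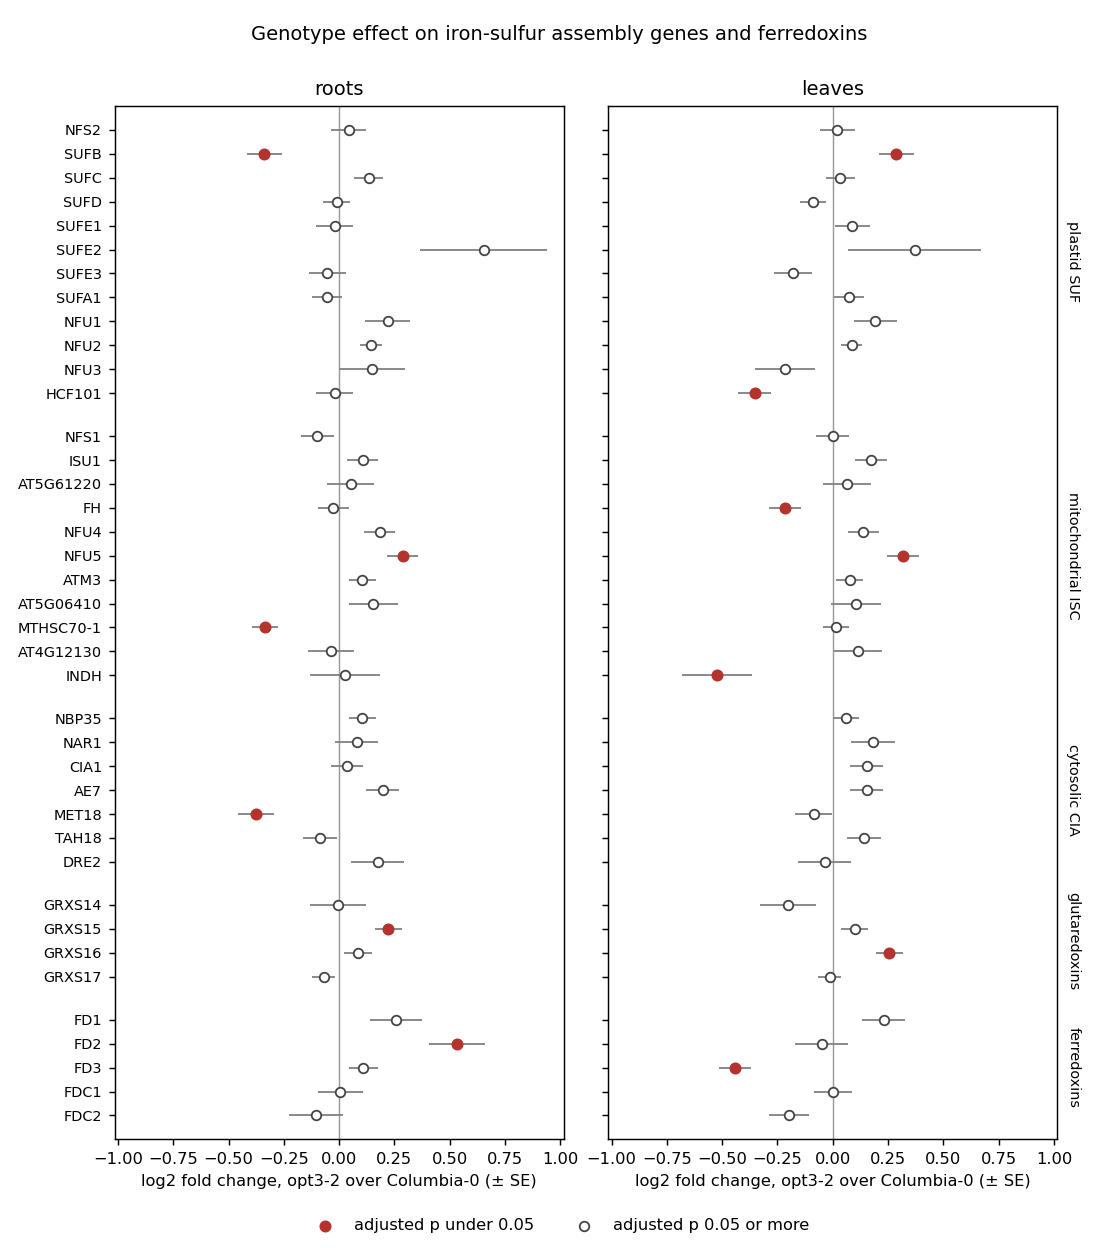
Log2 fold change of opt3-2 over Columbia-0 for the 39 tested members in roots (left) and leaves (right), with standard errors, grouped by pathway. Filled points passed an adjusted p of 0.05; most points lie within 0.3 of zero, and SUFB is filled on opposite sides in the 2 organs.

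Most root calls were lost under 2 other designs of the fit. With only the 6 root replicates in the fit, 1 member was called in roots, and with the set of run numbers as a covariate also 1; both times it was MTHSC70-1. Over all genes these settings gave 1973 and 1632 calls in roots, against 3377. The covariate, which sets the Columbia-0 replicates with run numbers 5 to 7 apart from all others, also moved the estimates: SUFB had -0.23 and FD2 0.45 in roots with it, against -0.34 and 0.53 without it. The main fit used a shared spread per gene for all groups, although replicates differed more in roots than in leaves. Chi-square per degree of freedom between replicates was 52.17 in opt3-2 roots and 21.06 in Columbia-0 roots. It was 8.22 in opt3-2 leaves and 11.96 in Columbia-0 leaves. With only the leaf replicates in the fit, 11 members and 7707 genes were called in leaves, against 7 and 6090. Genes were filtered anew in each fit of 1 organ, and the shares of tested genes called in these fits were not computed. The cause of the lost and gained calls, such as this shared spread, was not tested. Every opt3-2 replicate carries run numbers 1 to 3, and no Columbia-0 replicate has that set, so that run set and genotype cannot be told apart.

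In the plastid SUF pathway, SUFB was the one member called in opposite directions in the 2 organs. SUFB (AT4G04770, chr4:2427686-2429899, minus strand, TAIR10.1) is a subunit of the SufBCD scaffold on which the plastid cluster is built. In roots it was at 54.6, 53.8 and 51.3 CPM in opt3-2, against 76.4, 65.4 and 59.9 CPM in Columbia-0. In leaves SUFB was at 333, 319 and 331 CPM in opt3-2, against 261, 268 and 276 CPM in Columbia-0. The groups did not overlap in either organ: all opt3-2 roots were below, and all opt3-2 leaves above, their Columbia-0 counterparts. SUFB fell in opt3-2 roots (log2 fold change -0.34 ± 0.08 SE, adjusted p = 0.0158, edgeR) and rose in opt3-2 leaves (0.29 ± 0.08 SE, adjusted p = 0.0195). The difference between the 2 effects was 0.63 ± 0.11 on the log2 scale (adjusted p = 0.00356), and this difference passed under every alternative run. The call in roots was lost without Columbia-0 root replicate 1 (adjusted p = 0.0513) and the call in leaves without any 1 of the 6 leaf replicates (adjusted p = 0.0515 to 0.0856). The other scaffold subunits gave no call in either organ: SUFC, the ATPase, had log2 fold changes of 0.13 in roots and 0.03 in leaves, and SUFD had -0.01 and -0.09.

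The 250 bases upstream of SUFB are shown because its 2 organ effects had opposite signs. They come from the RefSeq annotation of TAIR10.1, 5′ to 3′ in the direction of the gene, and overlap no annotated exon of another gene. Capitals mark the evening element, a motif known from clock-controlled promoters, with the letters AAAATATCT on either strand.
SUFB, chr4:2429900-2430149, minus strand: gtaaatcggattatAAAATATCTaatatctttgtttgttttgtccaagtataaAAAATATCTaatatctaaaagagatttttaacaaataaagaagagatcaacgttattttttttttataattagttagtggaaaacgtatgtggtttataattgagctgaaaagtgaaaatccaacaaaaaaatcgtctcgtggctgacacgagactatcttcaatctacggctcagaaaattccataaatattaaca
SUFB held 2 copies, starting 236 and 197 bases before the gene start. The element was found in 2.36% of 27443 promoters of this length and in 2 of the 41 members, SUFB and ISU2. The G-box CACGTG was in 6.49% of all promoters and in 4 members (NFU1, ISU2, AT4G12130 and FDC2), and the I-box GATAAG in 12.3% and in 6 members. These are matches of letters, not sites.

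HCF101 (AT3G24430, chr3:8868583-8872346, minus strand), a carrier protein required for the clusters of photosystem I, was lower in opt3-2 leaves. It was at 114, 120 and 111 CPM in opt3-2 leaves, against 155, 150 and 136 CPM in Columbia-0 leaves, and the groups did not overlap. The log2 fold change was -0.35 ± 0.07 SE (adjusted p = 0.00428, edgeR), a call that held under every alternative run. In roots HCF101 was at 5.82, 5.84 and 5.07 CPM in opt3-2 and 5.32, 5.62 and 6.05 CPM in Columbia-0, with overlapping groups (log2 fold change -0.02, adjusted p = 0.923). The difference between organs was -0.33 on the log2 scale (adjusted p = 0.0655). It passed with DESeq2's size factors (adjusted p = 0.0441) and in DESeq2 itself (adjusted p = 0.0438), and also in 2 of the 12 fits that left out a replicate.

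NFU2, which transfers clusters from the SUF scaffold and was among the 12 members with the lowest adjusted p, was at 38.6, 37.3 and 36.7 CPM in opt3-2 roots, against 34.4, 33.0 and 34.5 CPM in Columbia-0 roots. The groups did not overlap, but the log2 fold change of 0.14 ± 0.05 SE did not pass (adjusted p = 0.0676, edgeR); DESeq2 called it (adjusted p = 0.0339). In leaves NFU2 was at 79.3, 80.9 and 82.8 CPM in opt3-2, against 76.0, 77.8 and 75.1 CPM in Columbia-0, again with no overlap and no call (0.09, adjusted p = 0.216). NFU2 was also the most abundant SUF member without a call. NFS2, the plastid cysteine desulfurase, had log2 fold changes of 0.04 in roots and 0.02 in leaves, and its activator SUFE1 had -0.02 and 0.09. The whole of the SUFE1 transcript lies within annotated transcripts of a gene on the other strand, UKL4, and whether counting used strand is not given, so that SUFE1 reads are uncertain. SUFE2, another activator, varied most between replicates: 8.69, 11.0 and 18.3 CPM in opt3-2 roots, against 5.30, 7.39 and 11.5 CPM in Columbia-0 roots. Its root values overlapped between groups, yet each opt3-2 replicate was above the Columbia-0 replicate of the same number. Without a block the log2 fold change of 0.65 ± 0.29 SE did not pass (adjusted p = 0.153, edgeR); with the replicate number as a block it did (0.65, adjusted p = 0.00170). The remaining SUF members, SUFE3 (a quinolinate synthase with a SufE domain), the A-type carrier SUFA1 and the transfer proteins NFU1 and NFU3, were called in neither organ, with log2 fold changes between -0.21 and 0.22. Under alternatives, NFU3 was called in leaves with only the leaf replicates in the fit (-0.23, adjusted p = 0.0180, edgeR). Without opt3-2 root replicate 3 it was called in roots (0.33, adjusted p = 0.0400) and for the difference between organs (-0.55, adjusted p = 0.0117). SUFE3 was called in leaves without Columbia-0 leaf replicate 3 (-0.31, adjusted p = 0.0137).

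In the mitochondrial ISC pathway, the chaperone MTHSC70-1 was lower in opt3-2 roots and did not pass in leaves. This mitochondrial Hsp70 (AT4G37910, chr4:17824777-17828192, minus strand) is thought to release clusters from the ISU scaffold. In roots it was at 113, 113 and 107 CPM in opt3-2, against 136, 148 and 137 CPM in Columbia-0, with every opt3-2 replicate below every Columbia-0 replicate. The log2 fold change was -0.34 ± 0.06 SE (adjusted p = 0.00219, edgeR), and it was the one root call among the members that held under every alternative run. In leaves it was at 108, 101 and 99.8 CPM in opt3-2, against 103, 102 and 101 CPM in Columbia-0, with overlapping groups (0.01, adjusted p = 0.888). The 2 effects differed by 0.35 ± 0.08 on the log2 scale (adjusted p = 0.0131). That difference was lost without Columbia-0 leaf replicate 2 or 3 or opt3-2 leaf replicate 1 or 2 (adjusted p = 0.0533 to 0.0763).

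NFU5 (AT1G51390, chr1:19050298-19052094, plus strand), a transfer protein of mitochondria, was the one member called in the same direction in both organs. In roots it was at 14.4, 14.2 and 13.5 CPM in opt3-2, against 11.4, 11.1 and 12.1 CPM in Columbia-0. In leaves NFU5 was at 15.9, 17.6 and 16.4 CPM in opt3-2, against 13.8, 12.7 and 13.6 CPM in Columbia-0. The opt3-2 replicates were above all Columbia-0 replicates in both organs, and NFU5 rose by 0.29 ± 0.07 SE in roots (log2, adjusted p = 0.0194, edgeR) and by 0.32 ± 0.07 SE in leaves (adjusted p = 0.00689). With the replicate number as a block the root value was 0.29 (adjusted p = 0.0534). The root call was also lost without Columbia-0 root replicate 1 or 2 or opt3-2 root replicate 2 (adjusted p = 0.0588 to 0.0779), and the leaf call without replicate 2 of either leaf group (adjusted p = 0.0556 and 0.0598). Transcripts of AT1G07733, which overlaps NFU5 on the other strand, share 15.1% of the 50-base words of NFU5. Whether counting used strand is not given, so reads in that overlap are uncertain for NFU5. Its paralog NFU4, which shares at most 27 identical bases in a row with NFU5, had log2 fold changes of 0.18 in roots (adjusted p = 0.102) and 0.14 in leaves (adjusted p = 0.174).

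FH and INDH were lower in opt3-2 leaves. FH (AT4G03240, chr4:1423238-1424772, minus strand), plant frataxin, is a mitochondrial protein tied to iron and to the desulfurase; it was at 11.6, 11.2 and 11.3 CPM in opt3-2 leaves, against 13.20, 12.96 and 13.50 CPM in Columbia-0 leaves. In roots FH was at 13.59, 11.98 and 12.61 CPM in opt3-2 and 13.51, 12.95 and 12.45 CPM in Columbia-0. The leaf groups did not overlap and the root groups did. The leaf change of -0.22 ± 0.07 SE was near the threshold (adjusted p = 0.0411, edgeR) and was lost without Columbia-0 root replicate 2 or 3 or opt3-2 leaf replicate 2 or 3 (adjusted p = 0.0547 to 0.0588). It was also lost with the run-number covariate (-0.19, adjusted p = 0.0881). INDH (AT4G19540, chr4:10657289-10659566, plus strand) is required for assembly of complex I, whose subunits hold many clusters. It was at 7.25, 8.47 and 9.03 CPM in opt3-2 leaves, against 10.6, 14.9 and 10.1 CPM in Columbia-0 leaves, where replicate 2 stood above the other two. In roots INDH was at 7.66, 6.65 and 5.81 CPM in opt3-2 and 6.08, 6.85 and 6.85 CPM in Columbia-0, with overlap. INDH fell in opt3-2 leaves by 0.52 ± 0.16 SE on the log2 scale (adjusted p = 0.0282, edgeR), and the call was lost without Columbia-0 leaf replicate 2 (-0.36, adjusted p = 0.0868) and without opt3-2 leaf replicate 1 or 2 (adjusted p = 0.0799 and 0.0503). The locus AT4G19550, which overlaps INDH on the other strand, shares 16.6% of the 50-base words of INDH, and reads in that overlap are uncertain.

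ISU1, the scaffold, was the most abundant ISC member without a call. In leaves it was at 148, 161 and 156 CPM in opt3-2, against 142, 145 and 125 CPM in Columbia-0 (log2 fold change 0.17 ± 0.07 SE, adjusted p = 0.0938, edgeR). In roots it was at 116, 104 and 109 CPM in opt3-2, against 102, 97.3 and 106 CPM in Columbia-0 (0.11 ± 0.07 SE, adjusted p = 0.352). The leaf groups did not overlap, and the root groups did. Its paralogs ISU2 and ISU3 had too few reads to test: ISU3 had none in any group, and ISU2 averaged 0.0441 CPM in Columbia-0 leaves and had none elsewhere. The mitochondrial cysteine desulfurase NFS1 had log2 fold changes of -0.10 in roots and 0.00 in leaves. ATM3, the exporter that links the mitochondrial and cytosolic pathways, had 0.10 and 0.08. The LYR-family protein AT5G61220, the DnaJ-domain protein AT5G06410 and AT4G12130, of the glycine cleavage T-protein family, lay between -0.04 and 0.15 and were not called.

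Among the 7 CIA genes, MET18 (AT5G48120, chr5:19507397-19514895, minus strand), a subunit of the complex that targets clusters to nuclear and cytosolic enzymes, was the one call. In roots it was at 30.4, 30.4 and 38.0 CPM in opt3-2, against 44.2, 41.1 and 42.7 CPM in Columbia-0. In leaves MET18 was at 34.9, 35.3 and 35.1 CPM in opt3-2, against 39.0, 35.9 and 36.9 CPM in Columbia-0. All opt3-2 replicates were below the Columbia-0 replicates of the same organ, although opt3-2 root replicate 3 stood nearer to Columbia-0 than the other two. MET18 fell in opt3-2 roots by 0.37 ± 0.08 SE on the log2 scale (adjusted p = 0.00992, edgeR), and in leaves its change of -0.09 did not pass (adjusted p = 0.477). Its partners in that complex were not called: CIA1 had log2 fold changes of 0.03 in roots and 0.15 in leaves, and AE7 had 0.20 and 0.15. NBP35, the cytosolic scaffold and the most abundant CIA member without a call, was at 35.3 ± 1.38 CPM in opt3-2 roots and 32.8 ± 1.21 CPM in Columbia-0 roots (log2 fold change 0.11, adjusted p = 0.265), and at 48.3 ± 1.303 CPM in opt3-2 leaves and 46.4 ± 2.64 CPM in Columbia-0 leaves (0.06, adjusted p = 0.499). NAR1, which receives the cluster from the scaffold, and the electron donors TAH18 and DRE2 lay between -0.08 and 0.18 in both organs, without a call.

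Monothiol glutaredoxins bind a cluster between a pair of subunits and act as carriers. GRXS15 (AT3G15660, chr3:5307694-5309624, minus strand), the mitochondrial one, was higher in opt3-2 roots, at 49.7, 48.5 and 45.6 CPM in opt3-2, against 42.4, 39.3 and 41.6 CPM in Columbia-0. In leaves GRXS15 was at 44.1, 42.3 and 47.2 CPM in opt3-2 and 40.9, 40.8 and 43.0 CPM in Columbia-0. The root groups did not overlap and the leaf groups did. The root change of 0.22 ± 0.06 SE passed (log2, adjusted p = 0.0284, edgeR) but was lost with upper-quartile factors (adjusted p = 0.0626) and without Columbia-0 root replicate 2 or 3 or opt3-2 root replicate 1 or 2 (adjusted p = 0.0657 to 0.113). The locus AT3G15650, which overlaps GRXS15 on the other strand, shares 19.9% of the 50-base words of GRXS15, and reads in that overlap are uncertain. GRXS16 (AT2G38270, chr2:16031185-16033169, minus strand), a plastid glutaredoxin, was higher in opt3-2 leaves, at 54.7, 54.3 and 53.3 CPM in opt3-2, against 47.2, 44.9 and 43.8 CPM in Columbia-0. In roots GRXS16 was at 14.2, 12.3 and 12.7 CPM in opt3-2 and 12.56, 11.99 and 12.48 CPM in Columbia-0. The leaf groups were well apart and the root groups overlapped; the leaf change of 0.26 ± 0.06 SE passed (adjusted p = 0.00887), except without Columbia-0 leaf replicate 2 or 3 or any opt3-2 leaf replicate (adjusted p = 0.0511 to 0.0807). GRXS14, the other plastid one and the most abundant glutaredoxin without a call, was at 54.5, 40.3 and 37.1 CPM in opt3-2 roots and 49.6, 41.9 and 40.9 CPM in Columbia-0 roots, and at 116, 112 and 108 CPM in opt3-2 leaves, against 133, 132 and 122 CPM in Columbia-0 leaves. Its leaf groups did not overlap, and it had log2 fold changes of 0.00 in roots and -0.20 in leaves (adjusted p = 0.26, edgeR). With only the leaf replicates in the fit, GRXS14 was called in leaves (-0.22, adjusted p = 0.0169). The cytosolic GRXS17 had -0.07 in roots and -0.01 in leaves, without a call.

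**Figure D2:**
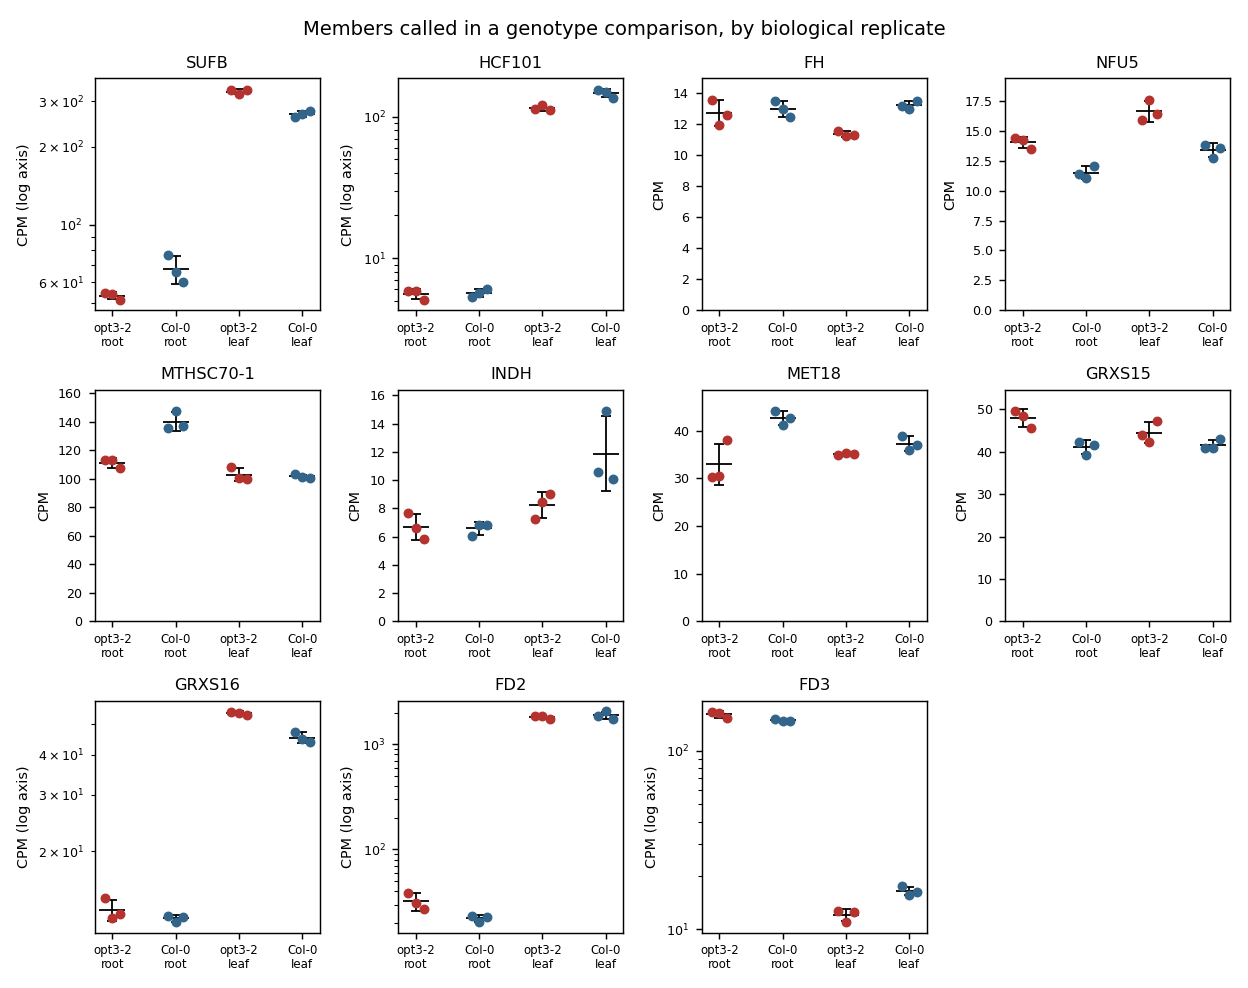
CPM in each biological replicate of the 11 members called in a genotype comparison (points), with the mean and SD (bars), opt3-2 in red and Columbia-0 in blue, on log axes where labelled so. SUFB is lower in all opt3-2 roots and higher in all opt3-2 leaves, and FD3 is lower in all opt3-2 leaves.

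Ferredoxins differed between organs far more than between genotypes. Levels were summed per 1000 bases of exon and 1000000 reads (RPKM) over the 5 ferredoxins among the members only. FD2, the major leaf ferredoxin, made up 83.2% ± 0.322 of this sum in opt3-2 leaves and 84.6% ± 1.39 in Columbia-0 leaves (SD, n = 3). In roots the leading transcript was FD3, a ferredoxin of non-photosynthetic plastids, with 78.0% ± 2.13 in opt3-2 and 81.0% ± 0.223 in Columbia-0. The summed level was 2217 ± 67.5 RPKM in opt3-2 leaves and 2258 ± 183 RPKM in Columbia-0 leaves, and 207 ± 13.2 RPKM in opt3-2 roots and 185 ± 3.39 RPKM in Columbia-0 roots.

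FD3 (AT2G27510, chr2:11757955-11759588, minus strand) was lower in opt3-2 leaves, where it is the minor form. It was at 12.7, 11.0 and 12.6 CPM in opt3-2 leaves, against 17.4, 15.6 and 16.2 CPM in Columbia-0 leaves. In roots FD3 was at 165, 163 and 152 CPM in opt3-2, against 151, 147 and 147 CPM in Columbia-0. Neither organ had overlap: opt3-2 was below Columbia-0 in leaves and above it in roots. FD3 fell in opt3-2 leaves by 0.44 ± 0.07 SE on the log2 scale (adjusted p = 8.67e-04, edgeR), while in roots its change of 0.11 ± 0.07 SE did not pass (adjusted p = 0.301). The leaf effect was below the root effect by 0.55 ± 0.10 (interaction -0.55, adjusted p = 0.003). Both the leaf call and this difference held under every alternative run.

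FD2 (AT1G60950, chr1:22444307-22445291, plus strand) was higher in opt3-2 roots, at 38.9, 30.7 and 26.9 CPM in opt3-2, against 23.3, 20.4 and 23.0 CPM in Columbia-0. In leaves FD2 was at 1837, 1861 and 1751 CPM in opt3-2 and 1850, 2056 and 1738 CPM in Columbia-0. All opt3-2 roots were above all Columbia-0 roots, and the leaf groups overlapped. FD2 rose in opt3-2 roots by 0.53 ± 0.13 SE on the log2 scale (adjusted p = 0.0147, edgeR), a call lost without Columbia-0 root replicate 2 (log2 fold change 0.48, adjusted p = 0.0653). In leaves its change was -0.05 (adjusted p = 0.802), and the effects differed by -0.58 ± 0.17 (adjusted p = 0.042). This difference was lost with upper-quartile factors (adjusted p = 0.0518), with the run-number covariate (-0.54, adjusted p = 0.0773) and without any of the Columbia-0 root or opt3-2 leaf replicates, Columbia-0 leaf replicate 1 or 2, or opt3-2 root replicate 2 (adjusted p = 0.0533 to 0.0991). The 7 leaf genes summed to 417, 258 and 209 CPM in opt3-2 root replicates 1 to 3, and to 305, 186 and 267 CPM in Columbia-0 root replicates 1 to 3. Within each genotype the root replicates thus had the same order for FD2 and for the leaf genes, although the leaf gene sums of the 2 genotypes overlapped and those of FD2 did not. The part of leaf-type transcripts in the root value of FD2 was not tested.

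The 250 bases upstream of FD2 and FD3 are printed for the contrast between the leaf and the root ferredoxin, from the same annotation and in the direction of each gene. Neither held a G-box, an I-box or an evening element, so they have no capitals.
FD2, chr1:22444057-22444306, plus strand: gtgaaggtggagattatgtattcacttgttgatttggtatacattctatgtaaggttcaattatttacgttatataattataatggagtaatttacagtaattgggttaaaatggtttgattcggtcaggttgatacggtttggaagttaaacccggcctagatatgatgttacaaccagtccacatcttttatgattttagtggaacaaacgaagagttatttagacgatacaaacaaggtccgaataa
FD3, chr2:11759589-11759838, minus strand: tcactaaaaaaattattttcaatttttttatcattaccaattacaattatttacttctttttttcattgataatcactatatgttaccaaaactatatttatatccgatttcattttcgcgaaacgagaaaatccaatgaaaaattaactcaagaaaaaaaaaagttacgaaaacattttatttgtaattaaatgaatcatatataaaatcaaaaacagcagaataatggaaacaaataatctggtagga

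The other 3 ferredoxins among the members were not called between genotypes. FD1, the minor leaf ferredoxin and the most abundant ferredoxin without a call, was at 4.36, 4.43 and 4.14 CPM in opt3-2 roots, against 3.73, 3.56 and 3.54 CPM in Columbia-0 roots. In leaves it was at 205, 201 and 187 CPM in opt3-2 and 194, 173 and 139 CPM in Columbia-0. Its root groups did not overlap, its leaf groups did, and neither change passed (log2 fold change 0.26 in roots, adjusted p = 0.174, and 0.23 in leaves, adjusted p = 0.107, edgeR). FD1 and FD2 share at most 23 identical bases in a row, so that few reads could be split between them. FDC1, a ferredoxin with an extended C-terminus, was at 5.06, 4.14 and 4.11 CPM in opt3-2 roots and 4.43, 4.92 and 3.92 CPM in Columbia-0 roots. In leaves it was at 67.5, 64.4 and 66.0 CPM in opt3-2 and 70.1, 64.9 and 63.0 CPM in Columbia-0, and its groups overlapped in both organs, with fold changes of 0.00 on the log2 scale. All of the FDC1 transcript lies within annotated transcripts of AT4G14900 on the other strand, so that its reads are uncertain. FDC2, the other extended form, was at 2.08, 1.80 and 1.64 CPM in opt3-2 roots and 1.68, 2.28 and 1.99 CPM in Columbia-0 roots. In leaves FDC2 was at 38.5, 35.8 and 38.2 CPM in opt3-2, against 43.3, 43.6 and 42.3 CPM in Columbia-0. The leaf groups did not overlap, and the change of -0.20 ± 0.09 SE did not pass in edgeR (adjusted p = 0.125), while it passed in DESeq2 (adjusted p = 0.0160) and in limma voom (adjusted p = 0.0242).

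**Figure D3:**
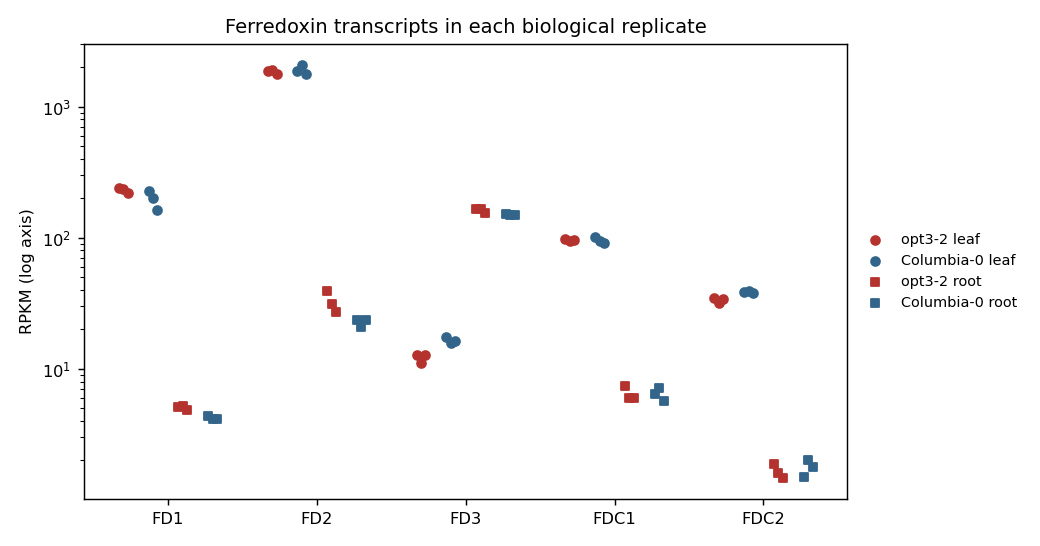
RPKM of the 5 ferredoxins in each biological replicate on a log axis, leaves as circles and roots as squares, opt3-2 in red and Columbia-0 in blue. FD3 alone lies higher in roots than in leaves; FD2 leads in leaves of both genotypes.

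The comparison of organs separated the pathways by compartment. In Columbia-0, 23 of the 39 tested members were higher in leaves than in roots and 3 were lower, when 77.4% of all tested genes passed, 36.2% higher and 41.2% lower. By compartment, 16 of 19 plastid members were higher in leaves and 1 was lower, with a median log2 fold change of 1.79. Of the 12 tested mitochondrial members 6 were higher and 1 lower (median 0.14), and of the 8 cytosolic members 1 was higher and 1 lower (median 0.03). The median over all genes was -0.06. In opt3-2, 23 members were higher in leaves and 1 was lower, when 78.8% of all tested genes passed, 38.4% higher and 40.4% lower. The medians were 1.71, 0.16 and 0.10 for the plastid, mitochondrial and cytosolic members. The organ comparisons of the 2 genotypes do not share samples, but each shares its samples with the genotype comparisons above.

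With upper-quartile factors the median of all genes shifted by -0.19 in the Columbia-0 comparison of organs and by -0.20 in that of opt3-2, and the small organ differences changed sides with it. In Columbia-0 the SUF members kept 10 higher and the ferredoxins 4 higher and 1 lower, while the ISC members became 3 higher and 3 lower and the CIA members 1 higher and 3 lower. In opt3-2 the SUF members became 10 higher and 2 lower (SUFE2 and SUFE3), and the ISC members 2 higher and 3 lower. With DESeq2's size factors the CIA members of Columbia-0 were 2 higher and none lower. In opt3-2 the same factors gave 4 ISC members higher and 2 lower (NFU4 and FH). Directions below are therefore given for the plastid members.

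Among SUF genes, HCF101 had the widest gap, at 59.3 ± 2.42 RPKM in opt3-2 leaves and 2.88 ± 0.228 RPKM in opt3-2 roots, and at 75.8 ± 5.20 RPKM in Columbia-0 leaves and 2.92 ± 0.187 RPKM in Columbia-0 roots (log2 fold change 4.37 in opt3-2 and 4.70 in Columbia-0). NFU3 had log2 fold changes of 2.64 in opt3-2 and 3.01 in Columbia-0, SUFB had 2.62 and 2.00, and NFU1, with the uncertain overlap described above, had 1.98 and 2.01. Per length SUFB was the highest SUF transcript in leaves, at 156 ± 3.56 RPKM in opt3-2 and 128 ± 3.56 RPKM in Columbia-0. Its scaffold partners SUFC and SUFD were at 49.4 ± 0.840 and 39.0 ± 0.294 RPKM in opt3-2 leaves and at 48.2 ± 3.52 and 41.5 ± 1.12 RPKM in Columbia-0 leaves. In roots NFU2 was highest, at 38.9 ± 0.977 RPKM in opt3-2 and 35.2 ± 0.844 RPKM in Columbia-0. SUFE2 and SUFE3 were the 2 SUF genes called in neither genotype, SUFE3 at 16.8 ± 0.975 RPKM in opt3-2 leaves and 17.2 ± 0.686 RPKM in opt3-2 roots.

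FD2 was 56.4 times as high in leaves as in roots of opt3-2 and 84.6 times in Columbia-0 by fitted fold change, and FD1 45.8 and 46.6 times. FDC2 and FDC1 were 20.3 and 14.8 times as high in leaves of opt3-2, and 21.6 and 14.9 times in Columbia-0. FD3 went the other way, 13.2 times as high in roots as in leaves of opt3-2 and 9.04 times in Columbia-0. Both plastid glutaredoxins were higher in leaves: GRXS14 by 1.35 in opt3-2 and 1.54 in Columbia-0 on the log2 scale, and GRXS16 by 2.05 and 1.88. Each of these gaps was far wider than the spread between replicates (adjusted p at most 9.6e-07, edgeR).

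**Figure D4:**
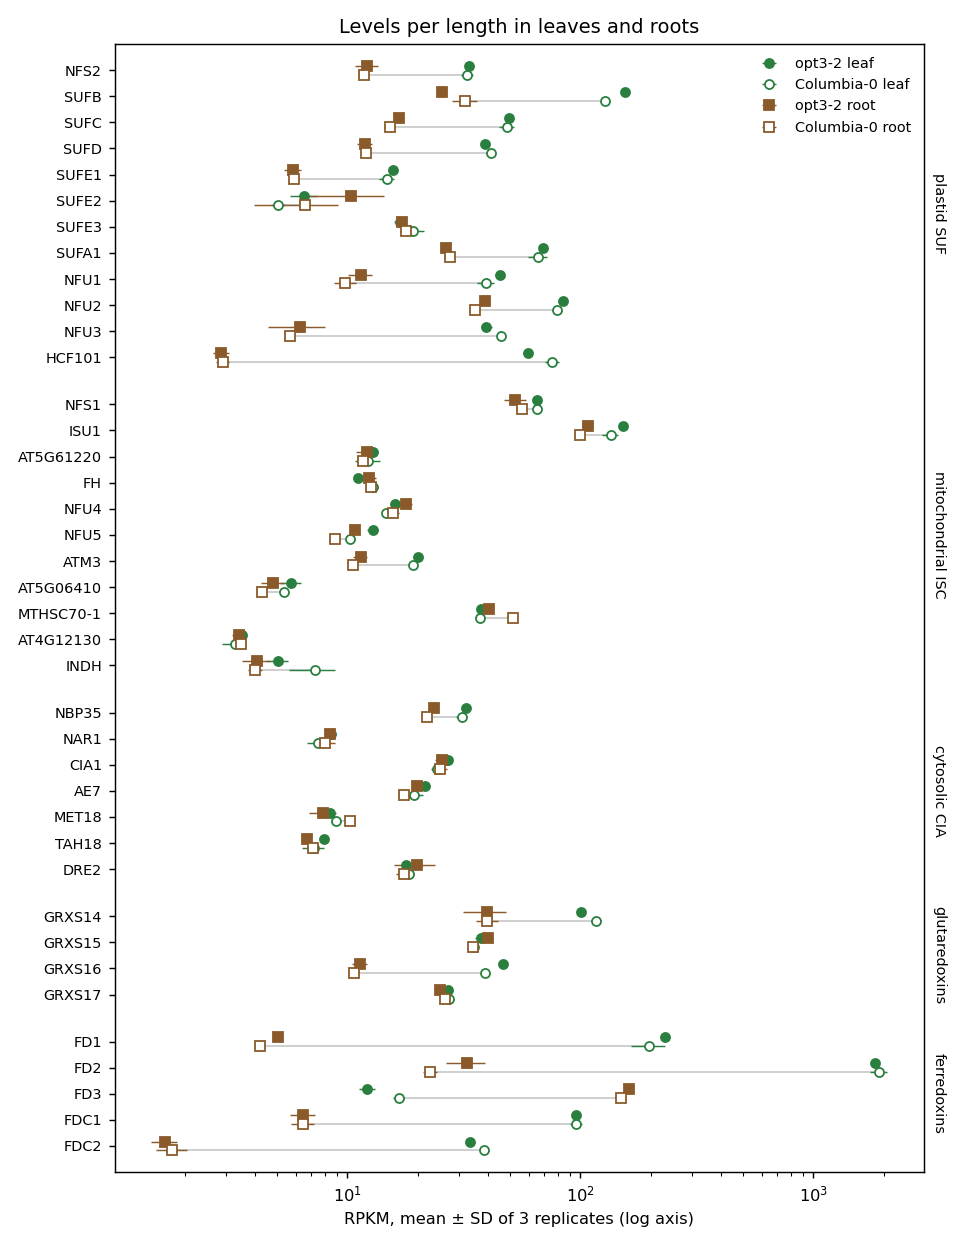
Level per length (RPKM, mean ± SD of 3 replicates, log axis) of the 39 tested members in leaves (circles) and roots (squares), filled for opt3-2 and open for Columbia-0. Lines join the Columbia-0 organs and are long for plastid SUF genes and ferredoxins and short for most ISC and CIA genes.

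Mitochondrial and cytosolic members differed less between organs. ISU1 was the highest of them per length, at 152 ± 6.36 RPKM in opt3-2 leaves, 135 ± 10.4 RPKM in Columbia-0 leaves, 107 ± 5.58 RPKM in opt3-2 roots and 99.7 ± 4.27 RPKM in Columbia-0 roots. NFS1, the desulfurase that feeds it, was at 65.2 ± 1.501 RPKM in opt3-2 leaves, 65.2 ± 2.34 RPKM in Columbia-0 leaves, 52.6 ± 5.76 RPKM in opt3-2 roots and 56.4 ± 1.98 RPKM in Columbia-0 roots. Its plastid counterpart NFS2 was at 33.1 ± 0.959 RPKM in opt3-2 leaves, 32.6 ± 1.83 RPKM in Columbia-0 leaves, 12.1 ± 1.35 RPKM in opt3-2 roots and 11.8 ± 0.413 RPKM in Columbia-0 roots. The plastid desulfurase transcript was thus below the mitochondrial one in all 4 groups. AT4G12130 was the lowest tested ISC transcript per length, at 3.54 ± 0.0852 RPKM in opt3-2 leaves, 3.28 ± 0.383 RPKM in Columbia-0 leaves, 3.42 ± 0.216 RPKM in opt3-2 roots and 3.51 ± 0.166 RPKM in Columbia-0 roots.

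The other genes of the pathway were 73 assembly factors, ferredoxin partners and iron-sulfur enzymes, of which 69 were tested. In roots 9 were higher and 11 lower in opt3-2 (median log2 fold change -0.01), and in leaves 18 were higher and 8 lower (median 0.06). Of all tested genes, 8.28% were higher and 7.28% lower in roots, and 15.4% higher and 12.6% lower in leaves. By list, of 20 plastid clients, none was higher and 6 were lower in roots, and of 17 mitochondrial clients 7 were higher and 1 was lower. The difference between the lists was not tested. In leaves the plastid clients were 3 higher and 4 lower, and the mitochondrial clients 7 higher and 1 lower. Of 16 tested cytosolic and nuclear clients 1 was higher and 2 were lower in roots, and 4 were higher and 1 was lower in leaves. Of 9 tested further assembly factors 1 was higher and 1 lower in roots, and 4 were higher and none lower in leaves. Of 7 ferredoxin partners, 1 was lower in roots and 2 were lower in leaves. MTHSC70-2, the paralog of MTHSC70-1, fell by 0.30 in roots (log2, adjusted p = 0.0193, edgeR) and rose by 0.29 in leaves (adjusted p = 0.0122). Its effects differed by 0.59 ± 0.10 (adjusted p = 0.00314), a difference that held under every alternative run. The root call of MTHSC70-2 was lost without Columbia-0 root replicate 1 or 2 or opt3-2 root replicate 2 (adjusted p up to 0.0726). It was also lost with the run-number covariate and with only the root replicates in the fit. The leaf call was lost without Columbia-0 leaf replicate 2 or 3 or opt3-2 leaf replicate 1 or 3 (adjusted p up to 0.0868).

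RFNR2 and NIR1 had the lowest fold changes of their lists in roots; of the 7 ferredoxin partners RFNR2 alone passed there, and the median of that list was 0.02. RFNR2, a root ferredoxin-NADP reductase, was at 174, 198 and 189 CPM in opt3-2 roots, against 348, 294 and 308 CPM in Columbia-0 roots. NIR1, the nitrite reductase, which takes electrons from ferredoxin, was at 204, 226 and 250 CPM in opt3-2 roots, against 419, 369 and 364 CPM in Columbia-0 roots. Neither pair of groups overlapped, and RFNR2 fell by 0.76 ± 0.11 SE and NIR1 by 0.76 ± 0.10 SE on the log2 scale (adjusted p = 5.6e-04 and 5.1e-04, edgeR), under every alternative run. ASE2, a plastid enzyme of purine synthesis, fell by 0.41 in roots (adjusted p = 0.00241). The leaf reductases LFNR1 and LFNR2 had root changes of -0.01 each, without a call.

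In leaves the largest rise among mitochondrial clients was that of SDH2-1, and among cytosolic clients those of AAO1 and AAO3. SDH2-1, the iron-sulfur subunit of succinate dehydrogenase, was at 66.7, 65.9 and 72.0 CPM in opt3-2 leaves, against 48.4, 44.6 and 49.3 CPM in Columbia-0 leaves, and rose by 0.52 (log2, adjusted p = 9.21e-05, edgeR). Its paralog SDH2-2 rose by 0.34 in leaves and by 0.28 in roots. AAO3, an aldehyde oxidase of abscisic acid synthesis, was at 91.9, 95.0 and 107 CPM in opt3-2 leaves, against 41.1, 42.8 and 47.0 CPM in Columbia-0 leaves. AAO1, a related oxidase, was at 94.5, 88.1 and 97.6 CPM in opt3-2 leaves, against 20.6, 19.3 and 36.1 CPM in Columbia-0 leaves. AAO3 rose by 1.16 and AAO1 by 1.88 in leaves, with no overlap between groups, and these calls held under every alternative run. AAO3 also rose in opt3-2 roots, by 0.66 (log2, adjusted p = 0.00181, edgeR), again under every alternative run. The related oxidase AAO2 did not pass in leaves (0.03, adjusted p = 0.828, edgeR) and fell by 0.37 in roots (adjusted p = 0.00342). XDH2, a xanthine dehydrogenase of the same list, was at 8.76, 8.32 and 8.12 CPM in opt3-2 leaves, against 17.6, 14.8 and 13.99 CPM in Columbia-0 leaves, and fell by 0.88 (adjusted p = 0.00689).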

How the data were processed

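Each library was an Illumina TruSeq library of RNA pooled over 3 to 4 plants, per the labels' protocols. The submitters' processing notes name TopHat2, edgeR and the build TAIR10, without versions. Not given in the sources used here are the counting program, the annotation release, filters and strandedness. The authors deposited whole-number read counts for each gene, without normalization. Among its 72 columns 36 were matched to a group and biological replicate by the letters and digit of their names. R stands for root in the sample titles. The letter S is in no title, where leaf is L, and was read as leaf. Run numbers matched no technical replicate number of the labels. The 36 other columns, whose names carry the letter T, also absent from the titles, were not used.

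The 3 runs of each biological replicate were summed. Genes were tested with edgeR 4.0.16 in R 4.3.3 (TMM factors, filterByExpr, quasi-likelihood F test, two-sided), in 1 model of 12 replicates with a mean per group and 8 residual degrees of freedom. P-values were adjusted by Benjamini-Hochberg over 21692 tested genes, with a threshold of 0.05. CPM and RPKM used TMM-scaled library sizes, and RPKM the RefSeq exon lengths of TAIR10.1, in which 28009 of 28775 genes were found. Fitted scripts were checked on simulated counts. Nothing says that replicates came from separate cultures, and the p-values then describe only how these samples vary, which may be technical. Alternatives were DESeq2's size factors, upper-quartile factors, no low-count filter, DESeq2 1.42.0, limma voom (limma 3.58.1), a replicate block, the set of run numbers as a covariate, a fit per organ and leaving out each replicate. Same-numbered root replicates deviated together (r = 0.606, 0.271 and 0.653 over 10000 genes). Root pairs of unlike number had r from -0.671 to 0.397. The highest of these joined opt3-2 replicate 2 to Columbia-0 replicate 1, above the 0.271 of opt3-2 replicate 2 with its own number. The numbers were taken to pair the roots, but this pairing is uncertain for replicate 2. The blocked root value is given where it changes a call.

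The members and lists were chosen with earlier results of these data known. Described with values were the members called between genotypes and the most abundant member without a call in each of the 5 groups. The 12 members with the lowest adjusted p and all ferredoxins among the members were described as well. Of each other pathway list, up to 4 called genes with the lowest adjusted p per comparison were eligible, or the 2 most abundant where fewer than 2 were called. SUFE2 was added after its values were seen.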

Additional observations from a re-analysis of the deposited data

Results flagged for a closer look

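The genotype effect differed between organs for 4 members, by the interaction term of the same edgeR fit, adjusted over all genes. Subtracting the root from the leaf effect gave a log2 difference of 0.63 for SUFB (adjusted p = 0.00356) and 0.35 for MTHSC70-1 (adjusted p = 0.0131). It was -0.58 for FD2 (adjusted p = 0.042) and -0.55 for FD3 (adjusted p = 0.003). The values for SUFB and FD3 passed under every alternative run, and those for MTHSC70-1 and FD2 did not.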

How the results depend on the processing

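Of the member calls, 1 of 6 in roots (MTHSC70-1), 2 of 7 in leaves (HCF101 and FD3), 2 of 4 for the difference between organs (SUFB and FD3), 22 of 26 between organs of Columbia-0 and 20 of 24 between organs of opt3-2 held under every alternative run. With the run-number covariate 1 member and 1632 genes were called in roots, and with a fit of the root replicates alone 1 member and 1973 genes. A fit of the leaf replicates alone called 11 members and 7707 genes in leaves. Fits of 1 organ and fits without a replicate filtered genes anew, and their shares of tested genes called were not computed. With 1 replicate left out in turn, roots gave 3 to 7 members and 2074 to 4231 genes, leaves 2 to 7 members and 4138 to 7189 genes, and the difference between organs 2 to 7 members and 2503 to 4540 genes. The organ comparison gave 23 to 26 members and 16350 to 17230 genes in opt3-2, and 23 to 29 members and 15977 to 17341 genes in Columbia-0. Where 1 replicate was left out the cause of a lost call was not tested. With the replicate block, the calls numbered 6 members in roots, 8 members in leaves and 4 members for the interaction; NFU5 lost its root call, SUFE2 gained one in roots, and in leaves FH lost its call (-0.22, adjusted p = 0.0710) while SUFE2 (0.37, adjusted p = 0.0214) and FD1 (0.24, adjusted p = 0.0411) gained one. Same-numbered leaf replicates did not deviate together (r = -0.0139, -0.0017 and 0.167). Under upper-quartile factors GRXS15 between the organs of Columbia-0 turned to -0.17 (adjusted p = 0.0374), and the share of calls that were higher in leaves was 39.5% in opt3-2 and 38.4% in Columbia-0, against 48.8% and 46.8% with TMM. Depth limits the scarce members: ISU2 and ISU3 could not be tested.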
